A study of Drosophila melanogaster with 6 samples.

Results

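The glutathione transferase genes of Drosophila melanogaster were followed in S2* cells given the moulting hormone 20-hydroxyecdysone (20E). The genes were chosen by name, as every probe set that the array's annotation assigns to exactly 1 gene with a current symbol of the cytosolic classes D, E, O, S, T or Z, or of the microsomal type. This gave 35 of the 11982 genes named on the array, measured by 38 of its 18769 probe sets. The gene table holds 36 such genes, and GstE8 has no probe set that names it alone. By class, 11 probe sets belonged to D, 14 to E, 4 to O, 1 to S, 4 to T, 2 to Z and 2 to the microsomal gene Mgstl. GstE9, GstO2 and Mgstl had 2 probe sets each and every other gene had 1.

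The treated group was S2* cells given 1 µM 20E for 24 h, on 3 Affymetrix Drosophila 2.0 arrays. The other group was untreated S2* cells, also on 3 arrays. S2* derives from S2, a fly line with macrophage traits, so both groups are 1 line in culture, kept at 27 °C with 10% fetal bovine serum in the medium. A solvent or a time in culture is not recorded for the untreated cells, so hormone, solvent and time cannot be told apart here. Whether the replicates of a group were grown separately is not stated, and p-values therefore cover only the spread among these arrays, part of which may be technical. Each sample is bulk RNA, in which fewer cells with a transcript and less transcript per cell cannot be told apart.

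Glutathione transferases join the tripeptide glutathione to reactive or foreign molecules, which makes them easier to export, and some also reduce peroxides. In flies the D (delta) and E (epsilon) classes are large and lie in gene clusters. They are best known for the handling of insecticides and of products of oxidative stress, and many respond to the transcription factor CncC and its inhibitor Keap1. The O (omega) class works on thiols and on eye pigment precursors, the S (sigma) class on products of lipid peroxidation, and the Z (zeta) class on tyrosine breakdown. One E class member, GstE14, also called Noppera-bo, is needed for ecdysteroid synthesis in the prothoracic gland.

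On these arrays the deposited intensities had medians of 49.4 to 56.4 with 20E and 43.2 to 51.9 without, and from 9 to 456 empty cells. Treated replicate 2 stood apart, with the most empty cells and 5.29% of its values below 0, against 1.99% to 3.31% on the other arrays. Its log2 values correlated with the other treated arrays at r = 0.868 and 0.877, while treated replicates 1 and 3 correlated at 0.952 (across probe sets, which are not independent). Untreated replicate 1 correlated with the other untreated arrays at 0.881 and 0.918, while untreated replicates 2 and 3 correlated at 0.955. Between the groups r was 0.803 to 0.887, a range that overlaps the values within groups. Of 4 genes listed to check the hormone response, Hsp27, vri and Eip78C rose by 5.70, 4.56 and 2.78 on the log2 scale. The ecdysone receptor gene EcR differed by 0.87, with overlapping groups. Of 9 haemocyte markers the collagen genes Col4a1 and vkg, the GATA factor gene srp and the scavenger receptor gene crq rose with 20E and Nplp2 fell. Hml, Pxn, NimC1 and eater stayed at group means of 12.02 to 54.1 units. The summed level of the haemocyte markers was 6586 to 9693 units with 20E and 7110.4 to 8774 without. Nplp2 gave 96.9 to 108 units of this sum with 20E and 4996 to 5425 without, so the similar sums hide opposite changes. That of 4 fat body markers was 594 to 941 with 20E and 173 to 203 without. Of these Fbp2 rose, by 3.74 on the log2 scale, while Lsp2 and Yp1 differed by 0.17 and 0.48 with overlapping groups. Fbp1 differed by −0.81, with every treated value under every untreated one. The 6 probe sets of neuron markers summed to 231 to 290 units with 20E and to 214 to 299 without, and the 3 of muscle markers to 1889 to 3591 with 20E and 2138 to 6275 without, most of it from the myosin light chain gene Mlc2. The part of these markers in the results below was not tested.

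With 20E, GstD3, GstE9, GstO3 and GstS1 rose, and GstD1 and GstD8 fell, GstD8 by deposited values far below 0. The other 29 measured genes did not pass the test, GstD5 because it could not be fitted. Levels are quantile-normalized intensities, called units here. Differences are 20E minus untreated on the log2(units + 16) scale, where values below 0 count as 0, with the standard error (SE) of a fit by limma across all probe sets and a Benjamini-Hochberg adjusted p. A probe set is said to rise or fall where that p is under 0.05. Of 37 probe sets fitted, 5 rose (13.5%) and 2 fell (5.41%), against 3.02% risen and 2.08% fallen over all 18767 probe sets tested, 5.1% in all. The median difference of the transferase probe sets was 0.04, from −1.90 to 4.25, beside a median of −0.02 over all probe sets. Differences were positive for 20 and negative for 17. Among 35 transferase probe sets with a value on every array, the groups did not overlap for 8 that were higher with 20E (22.9%, against 10.4% over all such probe sets) and for 6 that were lower (17.1%, against 12.3%). GstD8, whose treated values were all below 0, is counted among the fallen and among the 6 lower ones. These shares describe the family and were not tested against the other genes.

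**Figure D1:**
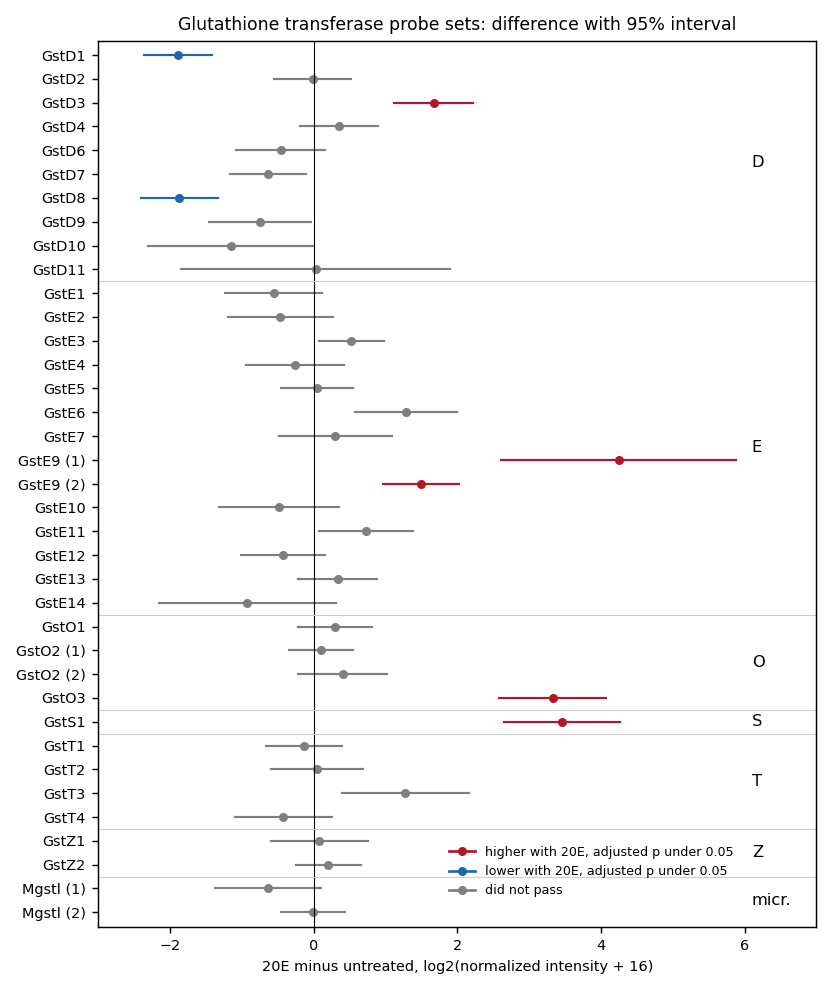
Difference between 20E and untreated cells for each of the 37 fitted glutathione transferase probe sets, on the log2(normalized intensity + 16) scale (points), with 95% intervals from limma (lines), grouped by class (letters at the right, micr. for microsomal). GstD3, both GstE9 probe sets, GstO3 and GstS1 lie to the right of 0 and GstD1 and GstD8 to the left in colour, and the 30 in grey did not pass the test.

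In the D class, GstD3 rose, GstD1 and GstD8 fell, 7 did not pass and GstD5 could not be fitted. Of the 10 fitted probe sets of the class, 10% rose and 20% fell, beside 3.02% and 2.08% over all probe sets tested. The median difference of the class was −0.55, with 3 positive and 7 negative, GstD8 among the negative ones. GstD1 encodes a transferase that can detoxify DDT and is a common reporter of CncC activity. Its level was 1100, 920 and 1156 units in the 3 samples with 20E, against 4477, 3551 and 3922 units in untreated cells. All treated values lay well under all untreated ones. The mean was 1059 ± 124 with 20E and 3983 ± 466 without (SD, n = 3 each), a 3.76-fold lower level, and the log2 difference was −1.90 ± 0.20 (SE, adjusted p = 0.00338). GstD1 passed under all 15 other settings, with differences of −1.98 to −1.76.

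GstD3 encodes a D class protein that lacks the amino end, where other members hold the catalytic residue. It was measured at 1481, 1413 and 1755 units with 20E and at 610, 394 and 440 units in untreated cells. The 3 treated values were close to each other and above every untreated one. GstD3 thus averaged 1550 ± 181 units with 20E and 481 ± 114 without (SD, n = 3 each), a ratio of 3.22, with a log2 difference of 1.67 ± 0.23 (adjusted p = 0.00978). The rise missed the threshold without variance moderation (adjusted p = 0.0539) and without treated replicate 3, untreated replicate 2 or untreated replicate 3 (highest adjusted p 0.0698), with differences of 1.54 to 1.85 when 1 array was left out.

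GstD8 gave the lowest deposited value of the whole table on each treated array, at −655, −1868 and −492, against 30.9, 63.1 and 34.5 on the untreated arrays. Such values lie below the zero of the intensity scale, so no fold can be given. Values far below 0 also occur without 20E, down to −263, −2093 and −1132 on the 3 untreated arrays, where other probe sets hold them. How the deposited values were made from the probes is not given, and whether a value this far below 0 measures a transcript level at all was not tested, so the fall of GstD8 stands on the deposited values alone. The fit returned a log2 difference of −1.87 ± 0.23 (adjusted p = 0.00589), which is set by the offset and ran from −5.44 with an offset of 1 to −0.74 with an offset of 64. Its untreated level, 35.5, 60.9 and 35.0 units after normalization, was itself low. GstD8 also failed to reach the 40th percentile of mean intensity and was left out under that filter. GstD5 had 47.7, 20.0 and 18.9 units in untreated cells and an empty cell on each treated array. It is 1 of only 2 probe sets in the table with no value on any treated array, while 0 probe sets lacked all 3 untreated values.

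None of the remaining D class genes passed the test, and the groups of GstD7, GstD9 and GstD10 did not overlap. With GstD1 and GstD8, 50% of the 10 D class probe sets with every value were lower without overlap. Over all such probe sets the share was 12.3%, and the 2 shares were not tested against each other. GstD9 had 547, 331 and 528 units with 20E, against 1069, 612 and 722 units in untreated cells. Each treated value was under each untreated one, and the difference was −0.75 ± 0.30 (adjusted p = 0.266). GstD10 was at 100, 16.98 and 89.3 units with 20E and at 126, 150 and 176 units without, and treated replicate 2 was far under the other treated values (−1.16 ± 0.49, adjusted p = 0.287). For GstD7 the values were 41.9, 56.1 and 41.7 units with 20E and 102, 80.5 and 64.7 units without (−0.64 ± 0.22, adjusted p = 0.194). GstD7 thus was also below its untreated values on every treated array. GstD6 was at 27.4, 13.8 and 38.8 units with 20E and 45.4, 39.2 and 38.6 units without, with overlapping groups (adjusted p = 0.455).

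GstD2 and GstD4 were dim in both groups, and GstD11 varied widely among the treated arrays. GstD2, one of the best studied members of the class, had 21.4, 19.4 and 18.8 units with 20E, against 25.4, 25.5 and 11.7 units in untreated cells. The groups overlapped and the difference of −0.01 had a 95% interval of −0.55 to 0.52. GstD4 was at 37.3, 28.6 and 19.4 units with 20E, against 22.1, 14.1 and 19.5 units in untreated cells (difference 0.35, adjusted p = 0.519). GstD11 was at −11.7, 149 and 30.9 units with 20E, against 17.3, 49.5 and 37.8 units in untreated cells. The treated GstD11 values ran from below 0 to the highest of all 6, in treated replicate 2, and the interval of its difference, −1.85 to 1.90, was wide enough to hold a clear rise or a clear fall.

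**Figure D2:**
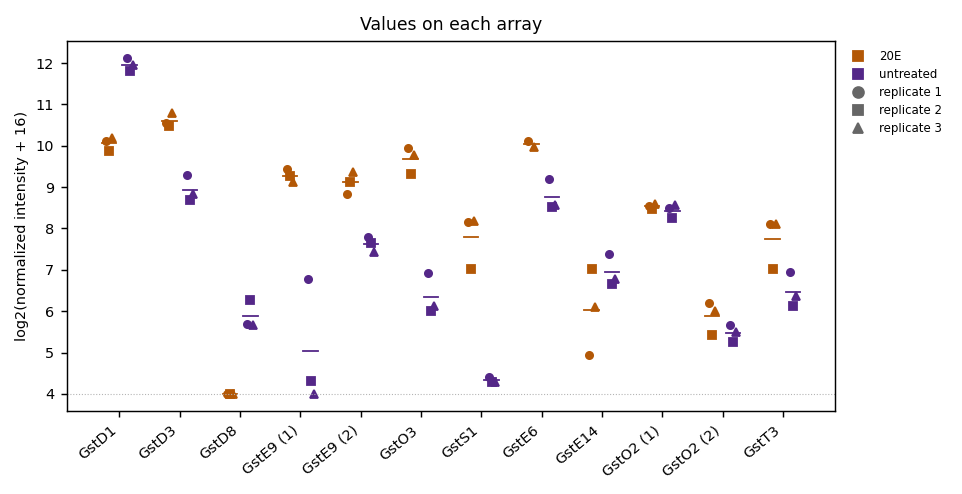
Values on each array for the 7 probe sets that passed the test and for GstE6, GstE14, both GstO2 probe sets and GstT3, as log2(normalized intensity + 16), with 20E left of untreated and a line at each group mean. The dotted line at 4 is the lowest value the scale allows, where all 3 treated values of GstD8 and 1 untreated value of GstE9 lie. For GstO2 and GstE14 the groups overlap.

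In the E class, GstE9 rose by both of its probe sets and the remaining 12 did not pass. Of the 14 probe sets of the class, 14.3% rose and 0 fell, beside 3.02% and 2.08% over all probe sets tested. The class median was 0.17, with 8 positive and 6 negative. The first GstE9 probe set gave 675, 601 and 542 units with 20E, against 93.2, 3.96 and −6.93 units in untreated cells. Untreated replicate 1 was well above the other untreated arrays, and all 3 lay far under the treated ones. Its difference was 4.25 ± 0.69 (adjusted p = 0.0179), and its size depended on the offset, from 6.28 with an offset of 1 to 2.92 with 64. The second probe set gave 444, 544 and 643 units with 20E, against 207, 185 and 155 units in untreated cells, again with no overlap. Its mean was 543 ± 99.5 with 20E and 182 ± 25.9 without (SD, n = 3 each), a ratio of 2.98, and the difference was 1.49 ± 0.22 (adjusted p = 0.0128). Both probe sets were higher on every treated array, while the size of the rise differed between them.

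The calls of GstE9 were lost when some of the arrays were left out. The first probe set missed the threshold with an offset of 1 (difference 6.28, adjusted p = 0.123) and without variance moderation (difference 4.25, adjusted p = 0.128). It also missed without treated replicate 1 or 3 or without untreated replicate 2 or 3 (highest adjusted p 0.0922). The second missed it without variance moderation (adjusted p = 0.0544) and without treated replicate 3, untreated replicate 2 or untreated replicate 3 (highest adjusted p 0.0806). Its difference stayed between 1.30 and 1.66 under all 15 settings.

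GstE6 came closest to the threshold among the rest of the class. It was at 1091 and 990 units with 20E, with an empty cell on treated replicate 2, against 567, 349 and 363 units in untreated cells. Both treated values were above all untreated ones, and the difference was 1.29 ± 0.29 (adjusted p = 0.0712, n = 2 treated and 3 untreated). It passed under 5 of the 15 settings, among them an offset of 64 (adjusted p = 0.0412) and no normalization between arrays (0.0211), and under none that left out an array. GstE3 was at 422, 336 and 379 units with 20E and at 283, 235 and 257 units without. These groups did not overlap and the difference was 0.52 ± 0.19 (adjusted p = 0.219). GstE11 had 341, 297 and 367 units with 20E, against 274, 134 and 200 units in untreated cells, also with no overlap (0.73 ± 0.28, adjusted p = 0.24). At an unadjusted p under 0.05, 5 E class probe sets were higher and 0 lower, while in the D class 1 was higher and 5 were lower. GstD8, with treated values below 0, is counted among the lower D class probe sets. Over all probe sets tested, 8.81% were higher and 8.4% lower at that level, and the difference between the classes was not tested.

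GstE14, the transferase of ecdysteroid synthesis, did not pass the test. Its values were 14.8, 114 and 52.6 units with 20E, against 152, 85.5 and 94.0 units in untreated cells. Treated replicate 2 lay among the untreated values and the other treated arrays below them. The difference was −0.92 ± 0.52 (adjusted p = 0.445), with an interval of −2.15 to 0.31. GstE1, known to respond to oxidative stress, had 90.4, 70.5 and 60.7 units with 20E and 86.0, 171 and 103 units without, with overlapping groups (−0.56 ± 0.28, adjusted p = 0.392). GstE12 was at 447, 368 and 358 units with 20E, against 713, 449 and 458 units in untreated cells. Its groups were separated only by the small gap between treated replicate 1 and untreated replicate 2 (−0.42, adjusted p = 0.463).

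GstE2, GstE4, GstE5, GstE7, GstE10 and GstE13 had overlapping groups and differences of −0.48 to 0.33. GstE13 was the highest of these differences, with 224, 239 and 296 units with 20E and 252, 182 and 164 units without. GstE10 was the lowest, with 76.6, 170 and 91.0 units with 20E and 110, 222 and 152 units without. GstE7 was at 123, 60.5 and 132 units with 20E, against 110, 59.5 and 72.3 units in untreated cells, and in both groups replicate 2 was the lowest. The levels of GstE2 (12.8 to 27.3 units with 20E, 17.3 to 47.2 without) and GstE5 (11.2 to 16.5 with 20E, 9.53 to 18.6 without) were close to the offset of 16, which compresses any difference. GstE4 ran from 40.3 to 59.5 units with 20E and from 39.2 to 86.5 without.

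Among the O class genes, GstO3 rose and the 3 probe sets of GstO1 and GstO2 did not pass the test. GstO3 had 970, 621 and 855 units with 20E, against 105, 48.5 and 53.5 units in untreated cells. Every treated value was several times the highest untreated one. GstO3 averaged 815 ± 178 units with 20E and 69.1 ± 31.5 without (SD, n = 3 each), a ratio of 11.8, and the difference was 3.32 ± 0.31 (adjusted p = 0.00195). It passed under all 15 settings, with differences of 2.73 to 3.64. GstO1 was at 118, 107 and 147 units with 20E and at 119, 85.2 and 89.2 units without (0.30, adjusted p = 0.57). The first GstO2 probe set had 355, 337 and 371 units with 20E, against 344, 287 and 360 units in untreated cells, and its difference of 0.10 had an interval of −0.34 to 0.55. The second had 57.7, 27.1 and 48.0 units with 20E and 34.6, 22.4 and 29.4 units without (0.40, adjusted p = 0.516). Both GstO2 probe sets had overlapping groups. The gene se, which makes an eye pigment precursor, belongs to the omega class by sequence but not by symbol. It was at 47.0, −5.63 and 31.7 units with 20E and at 44.2, 14.1 and 4.13 units without, a difference of 0.13 with an interval that reached past 1 log2 unit on either side.

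GstS1 is the single sigma class gene of the fly, abundant in flight muscle and able to conjugate the lipid peroxidation product 4-hydroxynonenal. Its level was 269, 113 and 276 units with 20E, against 5.25, 3.51 and 3.59 units in untreated cells. The untreated values sat just above 0 and treated replicate 2 was the lowest treated one, still far above them. The difference was 3.46 ± 0.34 (adjusted p = 0.00251). Because the untreated level was near 0, a linear fold is not given, and the difference ran from 2.00 with an offset of 64 to 5.34 with an offset of 1. It passed under all 14 settings that could be fitted. The probe set carries the suffix _s_at, which marks probes that can match several transcripts. The muscle markers Act88F and Tm2 differed by −0.09 and 0.08 and did not pass, and Mlc2 by −0.59 (adjusted p = 0.604).

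No T class, Z class or microsomal probe set passed the test, out of 4, 2 and 2. GstT3 was at 261, 114 and 259 units with 20E, against 107, 53.6 and 65.8 units in untreated cells. The groups did not overlap, though treated replicate 2 was close to untreated replicate 1, and the difference was 1.27 ± 0.37 (adjusted p = 0.124). Without treated replicate 2 the difference of GstT3 was 1.67 and it passed (adjusted p = 0.0333). GstT1 had 562, 723 and 746 units with 20E, against 897, 663 and 685 units in untreated cells, a difference of −0.14 with an interval of −0.66 to 0.39. GstT2 was at 103, 70.0 and 116 units with 20E and at 127, 79.4 and 76.0 units without (difference 0.04). GstT4 was at 182, 109 and 169 units with 20E and at 283, 165 and 189 units without (−0.43, adjusted p = 0.531). The groups of GstT1, GstT2 and GstT4 overlapped.

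GstZ1 and GstZ2 are relatives of maleylacetoacetate isomerase, an enzyme of tyrosine breakdown. GstZ1 had 55.8, 30.8 and 72.7 units with 20E, against 37.2, 51.1 and 55.6 units in untreated cells. For GstZ2 the values were 96.1, 118 and 88.6 units with 20E and 84.2, 89.4 and 81.2 units without. Both pairs of groups overlapped, with differences of 0.07 (interval −0.60 to 0.75) and 0.20 (interval −0.25 to 0.65). Mgstl encodes the membrane-bound microsomal transferase. Its second probe set was at 1162, 1186 and 1293 units with 20E, against 1150, 1151 and 1393 units in untreated cells, with a difference of −0.02 and an interval of −0.46 to 0.43. The first was at 43.4 and 40.03 units with 20E, with an empty cell on treated replicate 2, and at 93.7, 85.1 and 49.2 units without (−0.64 ± 0.30, adjusted p = 0.366). Neither Mgstl probe set passed, and their estimates differed.

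Most D and E class genes are neighbours in the Release 6 assembly. The 11 D class genes form 1 run, broken by the long noncoding RNA gene lncRNA:CR46015 after GstD1 and by CG10035 before GstD11. Along the run, GstD10, GstD9 and GstD1 come first, with differences of −1.16, −0.75 and −1.90. GstD2 follows at −0.01, and GstD3, its direct neighbour, at 1.67. After GstD4 and the unfitted GstD5 come GstD6 and GstD7 at −0.46 and −0.64, GstD8, whose treated values were at or below 0, and GstD11. A fallen and a risen gene, GstD1 and GstD3, are thus separated by GstD2 and the noncoding gene.

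The E class run holds 10 genes, of which 9 were measured, by 10 probe sets. Its order is GstE10, GstE1, GstE2, GstE3, GstE4, GstE5, GstE6, GstE7, GstE8 and GstE9. The first 3 genes had differences of −0.48, −0.56 and −0.47, GstE3 one of 0.52 and GstE4 one of −0.26. GstE6, GstE7 and the risen GstE9 lay toward the other end, with 1.29, 0.30 and, for GstE9, 4.25 and 1.49. The 4 E class genes outside the run, GstE11 to GstE14, held no call. In the omega run GstO3 is followed by se, GstO2 and GstO1. Differences between neighbouring genes were not tested against each other. Members of a run also resemble each other in sequence, so probes of one gene may bind transcripts of another, and this was not tested.

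**Figure D3:**
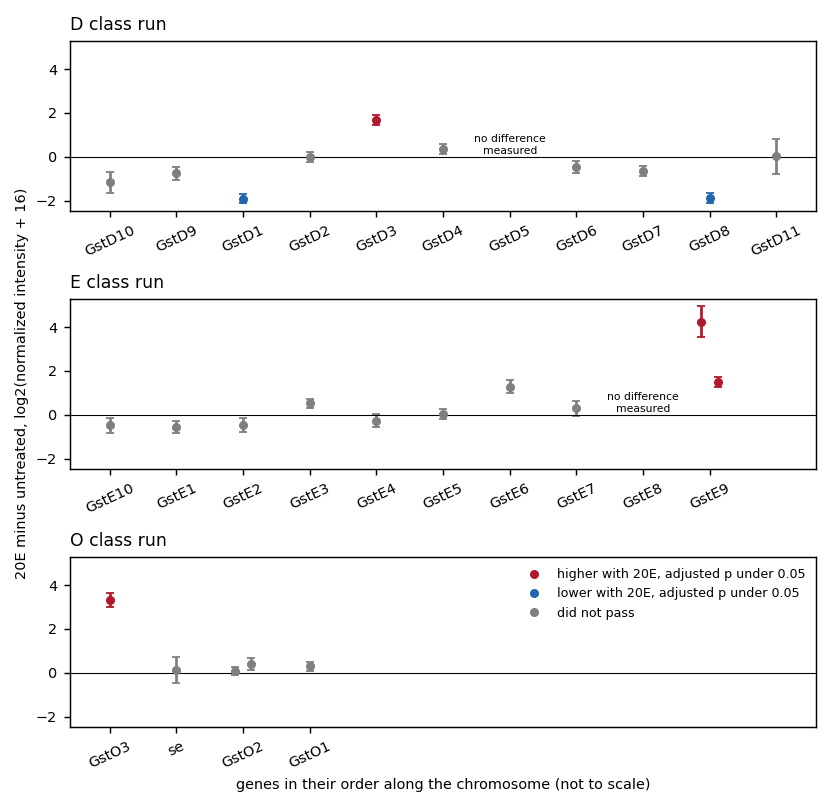
Difference between 20E and untreated cells (log2(normalized intensity + 16), points) with its standard error (bars) for the genes of the D, E and O class runs, in their order along the chromosome and not to scale. In the D class run GstD1 and GstD8 fell and GstD3 rose, and in the E class run the 2 probe sets of GstE9 rose. GstD5 and GstE8 have no difference.

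Besides the transferases, 3 lists were examined, of glutathione supply, of CncC-Keap1 control and conjugate export, and of relatives with a transferase fold. They held 26 genes measured by 28 probe sets. Of these probe sets 0 rose and 3 fell by limma, beside 3.02% risen and 2.08% fallen over all probe sets tested. At an unadjusted p under 0.05 there were 4 higher and 3 lower, beside 8.81% and 8.4% over all. In the glutathione supply list, 2 of 11 fell, 0 rose and the median difference was −0.14. The fallen genes were Cbs and Cth, the enzymes that turn homocysteine by way of cystathionine into cysteine, a building block of glutathione. Cbs was at 283, 507 and 342 units with 20E, against 1497 and 1386 units in untreated cells, with an empty cell on untreated replicate 1. All treated values were under the untreated ones (−1.93 ± 0.30, adjusted p = 0.0235, n = 3 treated and 2 untreated). Cth had 190, 220 and 200 units with 20E and 464, 354 and 423 units without, also with no overlap (−0.96, adjusted p = 0.0398). Gclc, the catalytic subunit of glutamate-cysteine ligase, was at 63.2, 58.4 and 70.1 units with 20E, against 99.1, 41.1 and 49.8 units in untreated cells (difference 0.08, adjusted p = 0.937). The modifier subunit gene Gclm differed by −0.48 (adjusted p = 0.422), and Trxr1, whose product serves in place of a glutathione reductase in flies, by −0.33 (adjusted p = 0.479). Differences in the glutathione supply list were positive for 4 probe sets and negative for 7. The largest positive one was that of Grx1t, at 1.03 with overlapping groups (adjusted p = 0.38).

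In the list of CncC-Keap1 control and conjugate export, 0 of 10 probe sets passed by limma and 4 were higher at an unadjusted p under 0.05 (40%, beside 8.81% over all probe sets tested), with a median difference of 0.48. Differences were positive for 7 probe sets and negative for 3, and the list was not tested against other genes. The probe sets of Cbs and Keap1 and the first one of cnc carry the suffix _s_at, and which transcripts they measured was not tested. The first probe set of cnc was at 190, 221 and 423 units with 20E, against 87.6, 75.8 and 130 units in untreated cells. Its groups did not overlap, and the difference of 1.32 ± 0.34 missed the threshold (adjusted p = 0.089), while the second had values around 0 in both groups (difference −0.15). Keap1 had 62.3, 48.8 and 50.9 units with 20E and 69.1, 49.2 and 48.5 units without, a difference of −0.03. The autophagy receptor gene ref(2)P differed by 1.09 (adjusted p = 0.124), the small Maf partner gene maf-S by 0.68 (0.253), and MRP, which encodes an export pump of the ABCC family, by 1.03 (0.353). MRP was at 446 units on treated replicate 2, against 1201 and 1216 on the other treated arrays.

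Among relatives with a transferase fold but another name, 1 of 7 probe sets fell, 0 rose and the median was −0.28. The fallen one was Clic, of the chloride intracellular channel family, at 332, 196 and 189 units with 20E and 919, 674 and 696 units without. Its groups did not overlap (−1.64 ± 0.27, adjusted p = 0.0204). Unlike the calls of the transferases, the falls of Cbs, Cth and Clic were not followed under the other settings. The elongation factor subunit gene eEF1gamma differed by −0.14 (adjusted p = 0.793).

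**Figure D4:**
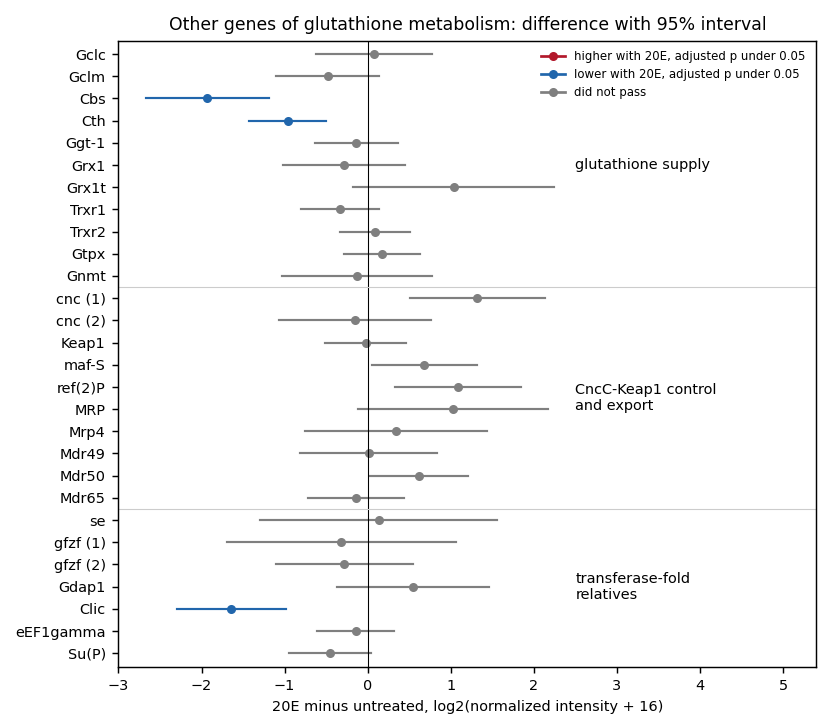
Difference between 20E and untreated cells (points, log2(normalized intensity + 16)) with 95% intervals (lines) for 28 probe sets of 3 lists of other genes. Cbs, Cth and Clic lie below 0 and passed the test. The first cnc probe set lies at 1.32 and did not pass.

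The 7 calls of the family differed in how far they rested on single arrays and on the processing. GstD1, GstD8, GstO3 and GstS1 passed under every setting that could be fitted, and the other 3, GstD3 and both GstE9 probe sets, were lost under at least 1. For GstD8 this does not show a sturdier call. All 3 of its treated values were negative, and the floor set them to the same log2 value of 4 in the reported fit. No setting varied that floor, so the settings could not test the fall of GstD8. Without treated replicate 3, without untreated replicate 2 or without untreated replicate 3, 2 transferase probe sets rose in place of 5, while 2 still fell. Without treated replicate 2 there were 6 that rose, with GstT3 added.

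**Figure D5:**
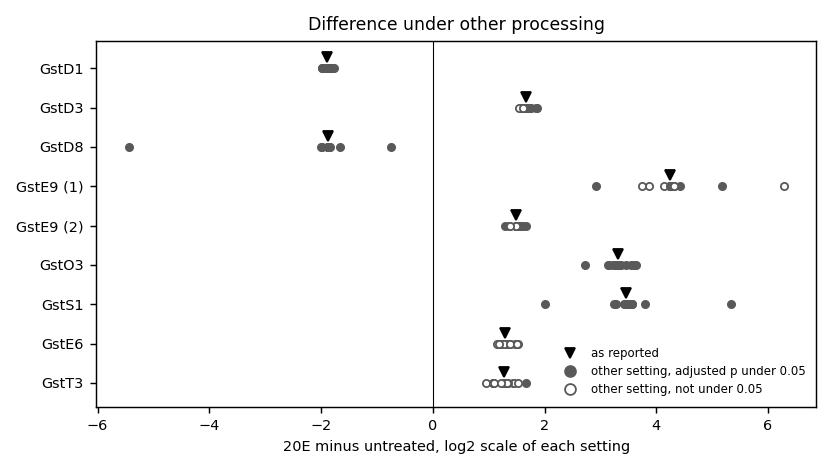
Difference between 20E and untreated cells on the log2 scale of each setting for the 7 probe sets that passed, and for GstE6 and GstT3, as reported (triangles) and under up to 15 other settings (circles, filled where the adjusted p is under 0.05). GstD1 and GstO3 stay filled within −1.98 to −1.76 and 2.73 to 3.64. The values of GstD8, GstS1 and the first GstE9 probe set spread with the offset.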

How the data were processed

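Total RNA was extracted with Trizol and labelled with biotin, per the labels' protocols. The values the authors deposited are linear intensities, 1 for each probe set on each array. How probes were combined, and any background correction or scaling, is not given in the sources used here. On the log2 scale the arrays spanned 0.38 in their medians and 0.44 in their 2% trimmed means, over the limit of 0.1 for tables taken as already normalized. The intensities were quantile normalized between arrays, floored at 0 and taken as log2(intensity + 16). Quantile normalization removes a shift shared by most transcripts, and the offset shrinks the differences of dim genes.

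Groups were compared with R 4.3.3 and limma 3.58.1 (a linear model with eBayes moderation, two-sided, prior degrees of freedom 2.89), fitted over all probe sets and checked on simulated data. No difference could be estimated for 2 probe sets. Where cells were empty, the fit used the values at hand. Units quoted are normalized values before the floor, and overlap was judged after it. The few arrays limit the precision of each value.

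A single gene was named for 13647 probe sets, several genes for 402 and none here for 4720. Symbols were updated by gene number through a RefSeq table of Release 6 plus ISO1 MT, which held 13544 of the single-gene probe sets. All members are named, and of 3 other lists the called genes with se, Gclc, cnc and Keap1. Gclm, Grx1t, Trxr1, ref(2)P, maf-S, MRP and eEF1gamma were named after their values were seen. The members, lists and tests were chosen with earlier results of these data known. Of the lists, Gss1, Gss2 and fax were not analysed here, nor 6 of the markers. A planned search of promoters was not made.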

Additional observations from a re-analysis of the deposited data

How the results depend on the processing

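Settings tried were offsets of 1 and 64, 2 other scalings, a 40th percentile filter, 2 other variance models, the replicate number as a block term, dropping _s_at, _x_at and _a_at probe sets, and leaving out each array. Over all probe sets the count of 957 calls was 567 with an offset of 1, 397 without variance moderation, 549 without the _s_at, _x_at and _a_at probe sets, and 326 to 1173 on leaving out 1 array. The 5 risen transferase probe sets became 2 without variance moderation and 2 to 6 on leaving out 1 array. The 2 fallen ones became 1 with the filter, which removes GstD8. The transferase median was 0.113 without normalization between arrays, where the median of all probe sets was 0.06, and the split of all calls was 723 higher to 307 lower, against 567 to 390 as reported.

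Whether replicate numbers pair the arrays was not settled by correlating deviations from the group means. Deviations of same-numbered arrays correlated at 0.238, 0.374 and −0.0202. Treated replicates 1 and 2 correlated best with the untreated array of the same number, and treated replicate 3 with untreated replicate 1 (0.338). With the replicate block the counts were 5 risen and 2 fallen, with 954 calls over all probe sets.

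A change of sign occurred for 7 probe sets, none called in either case (lowest adjusted p 0.424). GstD2 was 0.0478 without normalization between arrays, 0.0101 with an offset of 1 and −0.211 to 0.0848 on leaving out 1 array. GstD11 was −0.97 with an offset of 1, −0.0493 with median centring and −0.829 to 0.836 on leaving out 1 array. Without normalization between arrays GstT1 was 0.0212 and the second Mgstl probe set 0.113 (0.00055 with median centring). On leaving out 1 array, GstE5 ran from −0.0357 to 0.189, GstT2 from −0.0866 to 0.243, GstZ1 from −0.129 to 0.339 and that Mgstl probe set from −0.0623 to 0.0755. The cause of these changes was not tested. Signal over background could not be judged, and probe sets near 0 have differences set by the offset.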
